A study of Mus musculus with 6 samples.

Results

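The ribosomal protein genes described here encode the protein components of the cytosolic ribosome, and a given list of 46 mouse genes forms the set, 30 of the large subunit (among them the 3 stalk proteins) and 16 of the small subunit. For each gene the probe of highest mean signal was used, which gave 46 of the 19652 features that passed the filter on dim probes, and all 46 lay well above background on all 6 arrays. The arrays came from total RNA of mouse embryonic fibroblasts (MEFs), 3 samples labelled Rap1 knock-out and 3 labelled wild-type. In both groups the cells carried SV40 large T antigen, had been infected with cre recombinase and were grown with 2 micrograms per ml of puromycin. The knockout removes exon 3 of the conditional Rap1 gene (Terf2ip), which holds the end of the coding sequence and the 3' untranslated region. The labels do not name the Rap1 allele of the wild-type cells. The labels do not say whether the 3 samples of a group came from separate embryos or infections, so p-values measure the spread between these samples, which may be technical. The arrays report relative levels, so fewer cells of a type and less RNA per cell cannot be told apart.

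A ribosome joins a small subunit, which reads the mRNA, to a large subunit, which forms peptide bonds and carries a flexible stalk that recruits translation factors. Ribosomal proteins are made in matched amounts, and many of their mRNAs begin with a C followed by a run of C and T (a 5' terminal oligopyrimidine tract), through which the mTOR pathway and the RNA-binding protein Larp1 set their translation. Rap1 binds TRF2 at mammalian telomeres, and in budding yeast the protein of the same name is a general activator of ribosomal protein genes. The comparison of knockout with wild-type fibroblasts asks which transcripts depend on Rap1 in mouse cells.

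The sequences around annotated start sites are shown because the tract lies there. RefSeq's promoter table (GRCm38.p6) held 35 of the 46 genes. Below, 30 bases centred on the start are given 5' to 3' on the coding strand, with the longest run of C and T in capitals. Rpl35, Rpl15, Rps6 and Rpl38 are picked examples of long runs. Those of Rps6 and Rpl38 have 10 bases, fewer than in Rpl14 (14) or Rpl28 (11). Rpl27, Rpl28, Rpl22, Rps13 and Rps19 are given because their differences stand at the ends of the range described later. For Rpl22 and Rps19 the most upstream of several entries is shown.
Rpl35 (chr2:39005117-39005146, minus strand): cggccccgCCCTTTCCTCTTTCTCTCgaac
Rpl15 (chr14:18270972-18271001, minus strand): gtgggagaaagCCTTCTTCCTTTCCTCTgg
Rps6 (chr4:86857353-86857382, minus strand): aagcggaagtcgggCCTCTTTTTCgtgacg
Rpl38 (chr11:114668565-114668594, plus strand): agcggaagcctcgTTCTTTCCCCgttctct
Rpl27 (chr11:101442230-101442259, plus strand): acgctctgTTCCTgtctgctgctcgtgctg
Rpl28 (chr7:4792950-4792979, plus strand): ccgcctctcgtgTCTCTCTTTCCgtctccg
Rps13 (chr7:116334176-116334205, minus strand): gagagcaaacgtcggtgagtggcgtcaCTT
Rpl22 (chr4:152324421-152324450, plus strand): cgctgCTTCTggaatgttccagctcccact
Rps19 (chr7:24884577-24884606, plus strand): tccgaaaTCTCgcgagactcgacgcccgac
A C within 5 bases of the start that was followed by at least 4 C or T was found for 15 of 35 members (42.9%) and for 21.5% of all 17492 protein-coding genes in the table. A run of at least 8 C or T within 15 bases of the start was found for 14 of 35 members (40%) and for 14% of all genes. The longest run had a median of 7 bases in members, with a range of 2 to 18, and a median of 5 bases over all genes. Rpl35 had 18 bases, Rpl15 had 17, and Rpl24 had 2. These counts rest on annotated starts, which differ between entries for some members. A gene without a match is therefore not shown to lack the tract in its mRNA.

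Within the 300 bases of each entry (250 before and 50 after the start), searched on both strands, the telomere repeat TTAGGG occurred in 5 of 35 members (14.3%) and in 12% of all genes. A pair of such units in tandem, which contains the single unit, occurred in 0 of 35 members and 0.0114% of all genes. The ETS core CCGGAAGT was in 7 of 35 members (20%), against 5.69% of all genes, and TATAAA was in 3 (8.57%), against 14.8%. These are matches of letters in a window and say nothing of binding.

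The knockout label was checked first at Terf2ip. Its probe gave log2 values (relative to each array's 75th percentile, as for all levels below) of -7.91, -9.08 and -8.11 in knockout arrays, none well above background, and -1.75, -1.65 and -1.81 in wild-type arrays. The level was at least 38.3-fold lower in knockout (limma adjusted p = 0.00792). With slide as a block the adjusted p was 0.0625, and it stayed under 0.05 in 2 of 6 fits that each left out 1 array (those leaving out wild-type array 1 or knockout array 2). The range over those 6 fits was 0.0108 to 0.0759. Of 19652 features, 2 passed the threshold. Between 61.6% and 67.0% of probes lay above background on each array and 0 member spots were saturated. Wild-type arrays 2 and 3 were nearly alike, with an SD of their difference over all features of 0.25, against 0.83 to 1.25 for the other pairs. Of 12 fibroblast markers all passed the filter and 11 were above background on all arrays. Of other cell types, 1 of 4 endothelial, 1 of 4 blood, 2 of 4 pluripotent, 3 of 4 keratinocyte and 3 of 4 epithelial markers passed it. Passing did not mean a high level. Apart from Krt18 (means of 2.66 in knockout and 1.13 in wild type), these had means below 0 in both groups, such as -5.57 and -5.48 for Krt14. Among fibroblast markers the means were 6.52 and 6.37 for Col1a1, but -3.86 and -1.67 for Lum.

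No ribosomal protein gene was called different between knockout and wild-type fibroblasts. By limma's adjusted p, 0 of 46 passed the threshold, against 0.0102% of all features, and adjusted p ran from 0.497 to 0.996. At an unadjusted p under 0.05, 0 of 46 members were called, against 10.3% of all features (5.61% called higher in knockout). Standard errors of the log2 difference (knockout minus wild type) lay between 0.21 and 0.36, and every one of the 46 intervals of 95% included 0. For 42 members the interval lay within 2-fold either way. The other 4 were Rpl30, Rpl27, Rpl36 and Rpl10, whose upper bounds were 1.41, 1.01, 1.05 and 1.07 on the log2 scale.

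As a group, 38 members were above 0 and 8 below, with a median log2 difference of 0.15 and a range from -0.17 (Rpl22) to 0.67 (Rpl30), beside 55.4% of all features above 0 and a median of 0.07. This small shift depended on the scaling: the median was 0.01 after normexp correction and quantile normalization, with 25 members above 0 (55.2% of all features), and -0.15 after cyclic loess, with 7 above 0 and 39 below (50.3% of all features above 0). All features moved to a median of 0.04 and 0.00 under those scalings. Dividing each array by its median instead gave a member median of 0.26, and the median over all features moved to 0.17. In slide 1, which held knockout array 1 and wild-type array 1, the member median was 0.31, and in slide 2, which held the other 4 arrays, it was 0.07. Over all features the medians in slides 1 and 2 were 0.15 and 0.04. With wild-type arrays 2 and 3 averaged into 1, the member median was 0.18, with 41 members above 0, and that of all features was 0.08. No direction for the set as a whole holds across these settings.

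**Figure D1:**
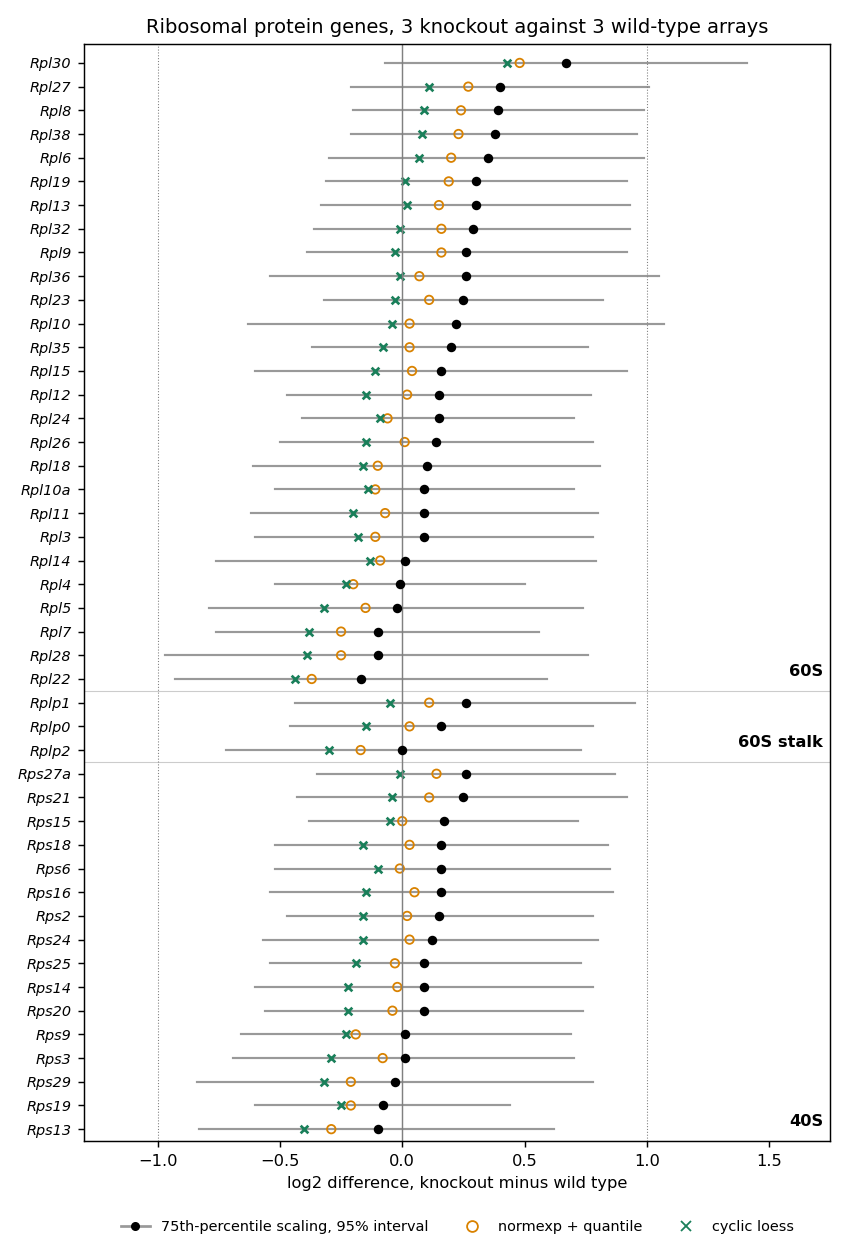
Log2 difference (knockout minus wild type) of the 46 ribosomal protein genes with intervals of 95%, ordered by size within the large subunit, its stalk and the small subunit, with quantile-normalised and cyclic-loess values of the same genes beside them. All 46 intervals cross 0, and the median of 0.15 turned to -0.15 under cyclic loess.

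The members varied together from array to array. Set against the gene's own average across arrays, the median member stood at 0.16, 0.45 and -0.33 in knockout arrays 1, 2 and 3, and at -0.16, -0.06 and 0.00 in wild-type arrays 1, 2 and 3. Knockout array 2 was thus the high array and knockout array 3 the low one, with the wild-type arrays between them. Knockout array 2 was the highest array for 39 of 46 members (84.8%), against 22.4% of all features. Knockout array 3 was the lowest for 40 of 46 (87.0%), against 17.9% of all features. Most members are bright, and among the brightest features (defined in the next paragraph) knockout array 2 was the highest for 41.1%. Knockout array 3 was the lowest for 33.8% of those features. Every one of the 46 members was higher in knockout array 2 than in array 3, by a median of 0.82 (0.23 to 1.31) on the log2 scale. The pattern was not particular to these members. The other 33 cytosolic ribosomal proteins stood at 0.16, 0.43 and -0.33 in knockout arrays 1, 2 and 3. In wild-type arrays 1, 2 and 3 they stood at -0.12, -0.06 and -0.02. The list of translation factors described later stood at 0.02, 0.26 and -0.15 in knockout arrays 1, 2 and 3.

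Brightness went with part of this pattern. Among the brightest 10% of features, knockout array 2 exceeded array 3 by a median of 0.45, and over all features by 0.12. The median deviation of the brightest features was 0.27, 0.28 and -0.17 in knockout arrays 1, 2 and 3. In wild-type arrays 1, 2 and 3 it was -0.06, -0.16 and -0.11. Knockout array 1 was thus about as high as array 2 there, unlike in the members. Under quantile normalization the member medians lay between -0.04 and 0.04 on all 6 arrays, and 24 of 46 members were higher in knockout array 2 than in array 3, with a median difference of 0.03. Under cyclic loess that median was 0.17, with 37 of 46 above 0. The spread followed: the SD over knockout arrays exceeded that over wild-type arrays for 44 of 46 members (median SD 0.41 and 0.12), against 71.4% of all features, but for 24 of 46 after quantile normalization (0.11 and 0.12) and 25 after cyclic loess, where the shares of all features were 67.9% and 69.4%. The 46 probes held 4.85%, 5.82% and 4.54% of the summed probe signal in knockout arrays 1, 2 and 3, and 4.72%, 5.25% and 5.32% in wild-type arrays 1, 2 and 3. These summaries of single arrays were added after the data were seen, and what set the arrays apart was not tested.

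**Figure D2:**
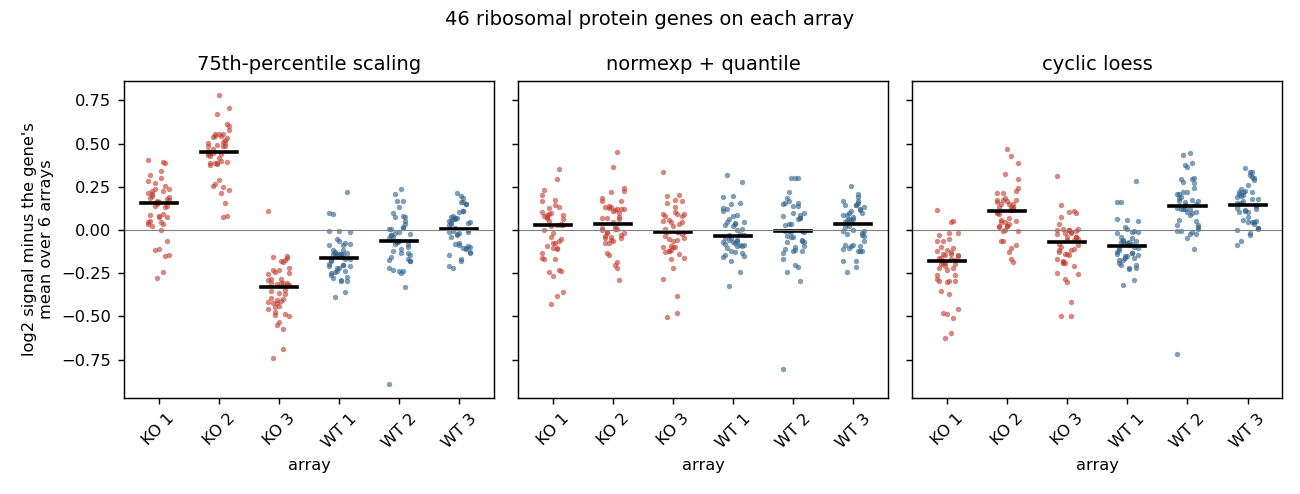
Deviation of each ribosomal protein gene from its own mean over the 6 arrays (log2), by array, knockout arrays left of wild-type arrays, under 3 scalings (bars are medians). Under the 75th percentile scaling the members sit high in knockout array 2 (median 0.45) and low in knockout array 3 (-0.33), and under quantile normalization all 6 medians lie between -0.04 and 0.04.

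When features were put in 10 bins of equal size by mean signal, all but 2 members belonged to the brightest bin, and the difference between groups was larger in the brighter bins. From the dimmest to the brightest bin, the median log2 difference was -0.07, -0.06, -0.07, -0.01, 0.01, 0.08, 0.10, 0.14, 0.20 and 0.22. In the brightest bin without the members (1919 features) the median was 0.22, and 32 of 46 members lay below it. Under quantile normalization that median was 0.06, with 32 members below it, and under cyclic loess it was 0.00, with 39 below it. The bin is wide, and features matched to the members in brightness were not compared.

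**Figure D3:**
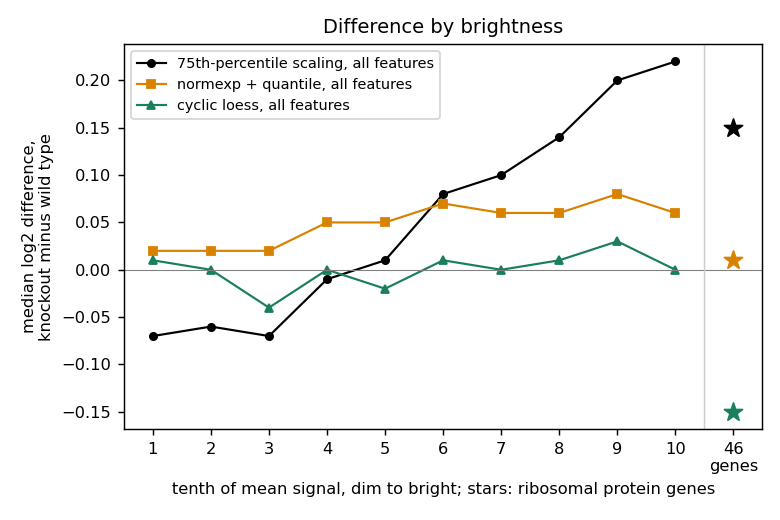
Median log2 difference (knockout minus wild type) of all features in 10 bins of mean signal, dim to bright, under 3 scalings, with stars for the median of the 46 ribosomal protein genes. The median runs from -0.07 to 0.22 under the 75th percentile scaling, and 44 of 46 members fall in the last bin; their median turns negative (-0.15) under cyclic loess.

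Among large-subunit proteins, 25 of 30 lay above 0, with a median of 0.16, and under cyclic loess the median was -0.10. Rpl30 was the only member whose groups did not overlap, where 11.3% of all features had every knockout array above every wild-type array. Rpl30, a large-subunit protein, gave 5.86, 5.94 and 5.57 in knockout arrays and 5.55, 4.57 and 5.25 in wild-type arrays. Wild-type array 2 was the low one, and wild-type array 1 lay just under the lowest knockout array. The difference was 0.67 (SE 0.31, adjusted p = 0.497), and it stayed between 0.31 and 0.88 under all 21 alternatives. Without wild-type array 2 it was 0.39.

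Rpl27, a large-subunit protein whose human counterpart is mutated in some Diamond-Blackfan anaemia families, gave 7.65, 7.91 and 7.22 in knockout and 7.22, 7.06 and 7.29 in wild type. The highest wild-type array lay above the lowest knockout array. Its difference was 0.40 (SE 0.26, adjusted p = 0.538), and 0.27 and 0.11 under quantile and loess scaling. Rpl8 gave 7.90, 8.23 and 7.54 in knockout and 7.55, 7.46 and 7.48 in wild type, a difference of 0.39 (SE 0.25, adjusted p = 0.537). Only wild-type array 1, at 7.55, reached above the lowest knockout array, at 7.54. Rpl38, which in mouse embryos is known for its part in translating Hox mRNAs, gave 7.69, 7.82 and 7.20 in knockout and 7.24, 7.13 and 7.20 in wild type, a difference of 0.38 (SE 0.25, adjusted p = 0.543). Rpl6 gave 6.93, 7.32 and 6.49 in knockout and 6.53, 6.56 and 6.61 in wild type (difference 0.35, SE 0.27), and Rpl19 gave 7.63, 7.69 and 7.01 in knockout and 7.14, 7.16 and 7.12 in wild type (0.30, SE 0.26). In both genes knockout array 3 lay below every wild-type array, and the other 2 knockout arrays lay above.

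Rpl6, Rpl8, Rpl13, Rpl19, Rpl27, Rpl30 and Rpl38 kept a positive sign under all 21 alternatives, though Rpl19 came to 0.01 and Rpl13 to 0.02 under cyclic loess. Several of the alternatives changed only the filter, the variance model or the block, and under those no sign could change.

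At the other end, Rpl22 and Rpl28 had the lowest large-subunit differences. Rpl22, which has a paralog, Rpl22l1, gave 6.64, 6.67 and 5.67 in knockout and 6.51, 6.51 and 6.47 in wild type. Knockout array 3 was the outlying value, and the other 2 knockout arrays were above all wild-type arrays. The difference was -0.17 (SE 0.32, adjusted p = 0.822), -0.37 under quantile normalization and -0.44 under cyclic loess, and without knockout array 3 it was 0.15. Its second probe gave -0.30. Rpl22l1 gave 4.14, 4.73 and 5.32 in knockout and 4.34, 5.20 and 5.22 in wild type, a difference of -0.19 (SE 0.40). Rpl28 gave 6.71, 7.66 and 6.44 in knockout and 6.77, 7.16 and 7.20 in wild type, a difference of -0.10 (SE 0.36), and Rpl7 gave a difference of -0.10 with 6.91, 7.07 and 6.45 in knockout and 6.57, 7.10 and 7.05 in wild type. Rpl5 and Rpl11, which in human and mouse cells bind Mdm2 when ribosome assembly is disturbed, had differences of -0.02 (SE 0.32) and 0.09 (SE 0.30). Rpl5 gave 7.41, 8.08 and 7.05 in knockout and 7.28, 7.74 and 7.60 in wild type. Rpl11 gave 7.45, 7.81 and 6.83 in knockout and 7.25, 7.37 and 7.21 in wild type. In both, the knockout values reached above and below all wild-type values. The 3 stalk proteins gave 0.26 for Rplp1, 0.16 for Rplp0 and 0.00 for Rplp2, with adjusted p between 0.701 and 0.996. Rplp0, on which the other two are mounted, gave 7.84, 8.27 and 7.59 in knockout and 7.55, 7.78 and 7.90 in wild type.

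Among small-subunit proteins, 13 of 16 lay above 0, with a median of 0.11, and under cyclic loess the median was -0.18 with 0 above 0. Rps27a, made as a fusion with ubiquitin, had the highest difference at 0.26 (SE 0.26). Rps6, a substrate of S6 kinase, gave 6.37, 6.70 and 5.78 in knockout and 6.06, 6.13 and 6.18 in wild type, a difference of 0.16 (SE 0.29). Its knockout values spanned the wild-type ones. Rps13 gave 7.09, 7.82 and 6.94 in knockout and 7.13, 7.50 and 7.52 in wild type, a difference of -0.10 (SE 0.30), -0.29 under quantile normalization. Rps19, whose human counterpart is often mutated in Diamond-Blackfan anaemia, a failure of red cell production, gave 3.11, 3.26 and 3.03 in knockout and 3.40, 3.04 and 3.21 in wild type, a difference of -0.08 (SE 0.22). It has 13 pseudogene entries in the RefSeq table.

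The sign of the difference was opposite in the 2 slides for 14 of 46 members (30.4%), 6 of the small and 8 of the large subunit, beside 39.4% of all features. The small-subunit genes were Rps24, Rps29, Rps14, Rps20, Rps3 and Rps19, and Rpl7 (0.34 in slide 1 and -0.31 in slide 2) and Rpl22 (0.13 and -0.32) were among those of the large subunit. Rps24 had a difference of 0.75 in slide 1 and -0.20 in slide 2, and Rps29 had 0.60 in slide 1 and -0.34 in slide 2, each with 1 knockout and 1 wild-type array in slide 1, where no test is possible. Rps29, a small zinc-binding protein, gave 7.42, 7.27 and 6.34 in knockout and 6.82, 7.11 and 7.19 in wild type, with knockout array 3 the lowest of all. Over both slides the differences were 0.12 (SE 0.29) for Rps24 and -0.03 (SE 0.34) for Rps29. Rps14 gave 8.11, 8.27 and 7.38 in knockout and 7.75, 7.86 and 7.89 in wild type, a difference of 0.09 (SE 0.29). Genes whose human counterparts are mutated in Diamond-Blackfan anaemia (10 members, a grouping chosen after the data were seen) had a median of 0.11, with 7 above 0, and under cyclic loess -0.16.

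**Figure D4:**
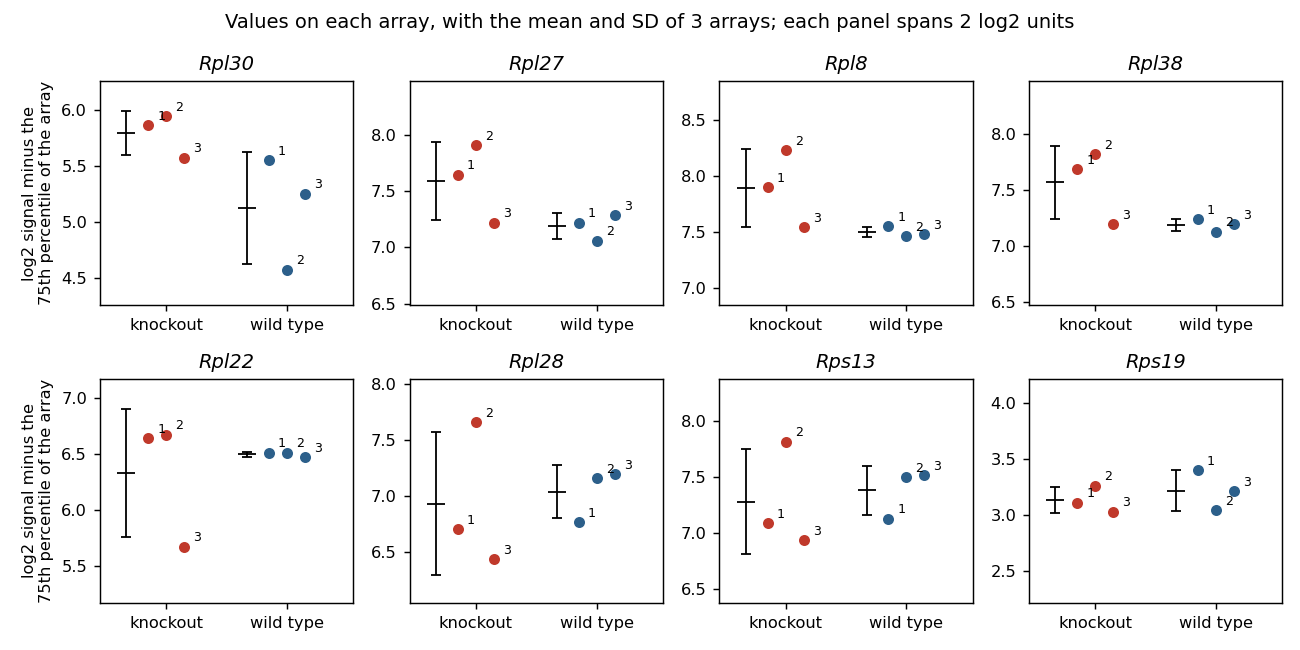
Log2 level by array of selected ribosomal protein genes, knockout arrays left of wild-type arrays, with the mean and SD (n = 3 each). Rpl30 is the only one whose groups do not overlap, and knockout array 3 is low for Rpl22 (5.67 against 6.64 and 6.67 in the other knockout arrays).

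Different probes of a gene mostly gave the same sign. The 14 members with more than 1 probe had 29 probes in all, and for 12 of the 14 the probes shared a sign. The median gap between probes of a gene was 0.09 and the largest 0.35 on the log2 scale. In 29 of 29 probes knockout array 2 was higher than array 3. Of these, 14 are the probes used for the members and were already counted above, and the rest were read on the same arrays. RefSeq lists pseudogenes for 35 of the 46 members (146 entries), and these probes could also have bound their transcripts, so single-gene differences are uncertain in that respect.

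Other parts of the translation machinery were set beside the members, and 0 genes in any of these lists passed the threshold. The other 33 cytosolic ribosomal proteins gave a median of 0.16, with 23 above 0, against 0.01 and -0.14 under quantile and loess scaling, much as in the members. Rpl29 was the highest of these at 0.37 (SE 0.25). Of 4 paralogs kept, 2 lay above 0, with Rpl7l1 at 0.75 (SE 0.34), Rps27l at 0.34 (SE 0.26) and Rpl36al at -0.28 (SE 0.27). The 77 mitochondrial ribosomal proteins, encoded in the nucleus and imported into mitochondria, gave a median of 0.37, with 70 above 0, and 0.25 and 0.20 under quantile and loess scaling. In 21 of the 77 every knockout array was above every wild-type array, and in 3 every one was below, beside 11.3% and 5.88% of all features. At an unadjusted p under 0.05, 5 of 77 were called, beside 10.3% of all features. Mrps7 gave 3.73, 3.16 and 3.20 in knockout and 2.91, 2.34 and 2.29 in wild type, a difference of 0.85 (SE 0.29, adjusted p = 0.475). Mrps26 and Mrpl49 gave differences of 0.80 and 0.70. The difference between mitochondrial and cytosolic proteins was not tested.

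Of 65 ribosome assembly genes, 44 lay above 0 with a median of 0.17, and 0.06 under cyclic loess. Taf1c, a subunit of the factor that starts rRNA transcription, gave 0.63. Bop1, needed for processing of the large-subunit rRNA, and Eif6, which keeps the subunits apart, had differences of 0.62 (SE 0.22) and 0.64 (SE 0.25), each with all knockout arrays above all wild-type arrays. That held for 9 of the 65 genes, beside 11.3% of all features. The nucleolar proteins Ncl and Npm1 had -0.62 (SE 0.36) and -0.51 (SE 0.37), and Fbl, which methylates rRNA, 0.05. In a list of 45 translation factors, their regulators and other genes of mRNAs with such a tract, 27 lay above 0. The median was 0.08, and -0.16 under cyclic loess. Eef1a1, Eef2 and Tpt1, whose mRNAs carry the same kind of tract as those of the members, gave 0.07, 0.06 and 0.09. Eif2s2 gave -0.72 (SE 0.33) and Eif3d and Eef1d 0.47 each.

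Among 29 genes listed as regulators of ribosome production or for the p53 pathway, 14 lay above 0 with a median of -0.01. Larp1 was not among them, because no probe was matched to its name. Mtor gave 0.12 (SE 0.24) and Rps6kb1 -0.01, while Mlst8, a subunit of the mTOR complexes, gave 0.97 (SE 0.38) with all knockout arrays above all wild-type arrays. Such a separation was found in 4 of the 29 genes, beside 11.3% of all features. Tsc2, which restrains mTOR, gave 0.75 (SE 0.30), and Rps6kb2, an S6 kinase, 0.65. Myc, an activator of ribosome production, gave -0.47 (SE 0.37), Trp53 0.30 and Mdm2 0.12. Proliferation genes, 17 of 20 above 0, had a median of 0.36, and 0.20 under cyclic loess. Cdc6 and Ccne1, which act in the entry into DNA replication, gave 0.64 (SE 0.20) and 0.70 (SE 0.25), and Birc5, a mitotic regulator, 0.65 (SE 0.25), each with all knockout arrays above all wild-type arrays. In this list 7 of 20 genes were separated that way. Per array the list's median deviation was 0.26, 0.32 and -0.01 in knockout and -0.16, -0.18 and -0.20 in wild type. The 12 fibroblast markers had a median of -0.85, with 8 below 0 and 4 above. Prrx1 was at -0.90 (SE 0.24), Pdgfra at -2.38 (SE 0.81) and Thy1 at -2.64 (SE 1.12), and Pdgfrb, Twist1, Vim and Col1a1 were at 0.60, 0.26, 0.21 and 0.16. Thy1 gave -6.01 in slide 1 and -0.96 in slide 2, Pdgfra gave -4.40 and -1.36, and the median of the list was -0.45 and -0.11. The sign reversed for Dcn (-3.59, SE 2.50), with -11.25 in slide 1 and 0.24 in slide 2. It also reversed for Lum (-2.19, SE 2.65), with -11.74 and 2.58. Both were lowest in knockout array 1, at -5.47 for Dcn and -9.08 for Lum. The median deviations of the markers stood at -0.15, 0.39 and -0.31 in knockout and 0.59, 0.22 and 0.29 in wild type. The part of either list in the members' values was not tested.

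**Figure D5:**
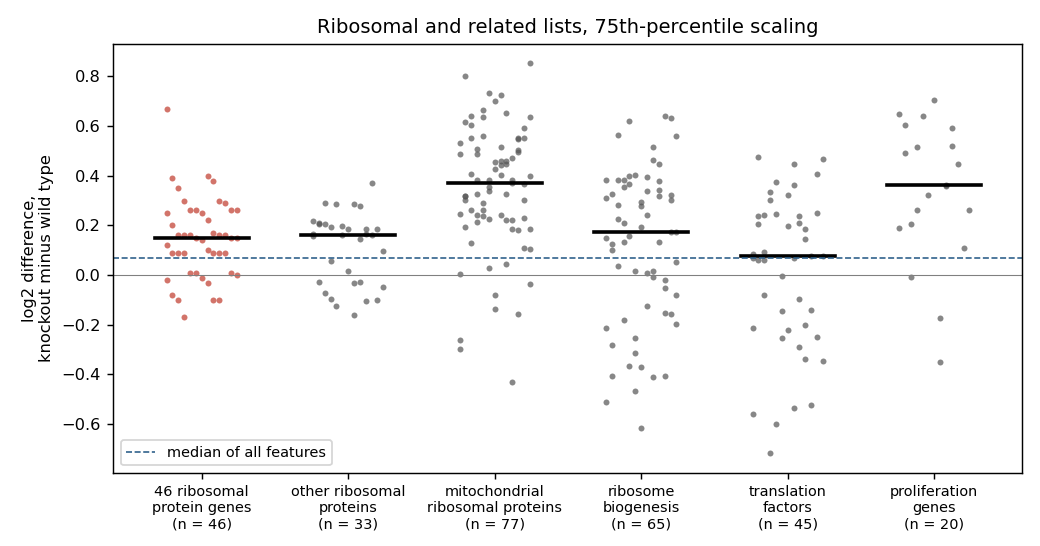
Log2 difference (knockout minus wild type) of each gene in the ribosomal protein set (left) and 5 related lists, with bars at the median of each list and a dashed line at the median of all features (0.07). Ribosomal proteins have a median of 0.15 (-0.15 under cyclic loess) and mitochondrial ribosomal proteins 0.37 (0.20 under cyclic loess), and none of these genes passed the adjusted threshold.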

How the data were processed

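Cy3-labelled total RNA of 3 Rap1 knockout and 3 wild-type fibroblast samples (RNA integrity 9.3 to 10) was hybridised to 1-colour Agilent arrays, per the labels' protocols. Scanner files deposited by the authors give intensity per spot, and their headers name Feature Extraction 10.5.1.1; the processed signal had been background-corrected by that software. The authors also deposited log2 values in a table (column medians 6.86 to 6.87), and the submitters' processing notes name limma. Each of its columns matched a normexp (offset 50) and quantile version of 1 scanner array (correlation 0.99999), but knockout columns 1, 2 and 3 matched scanner arrays 2, 3 and 1. Knockout numbers here follow the scanner files, and the authors' exact steps are not given in the sources used here.

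Control spots (1639 of 45018) and outlier spots (74 to 120 per array) were dropped, and spots were averaged into 41174 probes. Each value was the log2 processed signal less its array's 75th percentile. The 25513 probes kept were well above background throughout 1 group or both, and a gene was represented by the brightest of its kept probes on average. RefSeq accessions named 23374 probes; 17800 kept the file's name. The groups were compared with limma (version 3.58.1, R 4.3.3) using lmFit and eBayes without a block, 2-sided, with Benjamini-Hochberg adjustment at 0.05 over 19652 features, after a trial on simulated data. Replicate numbers were not taken to pair samples: same-numbered deviations correlated at 0.01, 0.05 and -0.08. The number of arrays limits the precision. Members and lists were chosen with earlier results of these data known. Any member could be named; values per array are given for the highest and lowest differences and for listed roles, and in related lists for genes of smallest p.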

Additional observations from a re-analysis of the deposited data

How the results depend on the processing

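Over all features, 2 passed the threshold, and 0 passed with probes above background on all arrays (1780 at an unadjusted p under 0.05 by limma), 4 with the mean of a gene's probes, 0 with slide as a block (3482), 0 with wild-type arrays 2 and 3 averaged (691), 303 in slide 2 only, and 0 to 192 when 1 array was left out (192 without wild-type array 1). With the replicate number as a block 0 passed (2352 at an unadjusted p under 0.05), and 0 (1648) with knockout arrays paired in the value table's order, an alternative added after seeing the data; no other call changed with the block. 0 of 46 members passed under any alternative that gave a test. Slide 1 has 1 array a group and gives no test. The member median of 0.15 was -0.15 under cyclic loess, -0.03 in the deposited value table and -0.05 after quantile normalization of the processed signal (also added after seeing the data), and -0.04 (without knockout array 2) to 0.35 (without knockout array 3) when 1 array was left out. Members above 0 were 38, and 25 after normexp and quantile normalization, 7 under cyclic loess, 18 in the value table, 16 after quantile normalization of the processed signal, and 18 to 45 when 1 array was left out. The cause was not tested. Without knockout array 3, 7 of 46 members had an unadjusted p under 0.05 by limma, beside 3889 of 19722 features. Of 966 member values under 21 alternatives, 934 moved by less than 1 SD of the replicates and 32 by 1 SD or more. Alternatives that changed only the filter, the variance model or the block could not move a member's difference, and their values are among the 934. The SD also includes the wide spread between knockout arrays, so these counts do not measure how firm the differences are. No member had a call, so a change of sign was not counted as a reversal, but it was common: 31 of 46 members changed sign under cyclic loess, 13 under normexp and quantile normalization, 20 in the value table and 20 without knockout array 2.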
